A study of Mus musculus with 13 samples.

Results

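The insulin-like growth factor (IGF) axis was described here through 10 genes of the 48795 in the gene table, taken by name: the ligands Igf1 and Igf2, the receptors Igf1r and Igf2r, and the binding proteins Igfbp2, Igfbp3, Igfbp4, Igfbp5, Igfbp6 and Igfbp7. RNA was sequenced from the right brain hemisphere, without olfactory bulb and cerebellum, of 13 mice at postnatal day 11. The 5 nlsYAP5SA mice carried NexCre +/- and YAP5SAnls +/-, and 5 control mice carried YAP5SAnls +/- without Cre (NexCre -/-), so that both groups held the transgene and only the first could express it. The 3 C57BL/6 mice carried neither allele, and the strain background of all 13 mice was C57BL/6J. The transgene codes for a YAP1 protein that kinases cannot switch off and that is kept in the nucleus, and it is released by Cre under the Nex (Neurod6) promoter, which is active in neuronal precursors and pyramidal neurons of the cortex and hippocampus. The hemispheres therefore held recombined cells, any tumour tissue and all other brain cells together. Controls and nlsYAP5SA mice were littermates from a pair of matings that are not named per mouse, and the C57BL/6 mice came from other litters.

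Both IGF ligands signal through IGF1R, a receptor tyrosine kinase whose adaptors feed the PI3K-AKT-mTOR branch and which drives growth and survival of neural cells. IGF2R is a mannose 6-phosphate receptor that takes up IGF2 for lysosomal breakdown and has no kinase. The binding proteins hold the ligands outside the cell and set how much reaches the receptor, and proteases that cut them set the ligands free. In the postnatal brain Igf2 is known chiefly from the choroid plexus, meninges and vessels, and several binding proteins are known from glia, vessels and meninges.

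The promoters of 4 members are shown because Igfbp2 and Igfbp3 carried the largest differences below, Igfbp5 lies beside Igfbp2, and Igf2 is the ligand with the highest level. YAP1 does not bind DNA itself and acts through TEAD factors, whose core motif reads GGAATG or, on the other strand, CATTCC. The windows hold the 250 bases before a RefSeq transcript start in build GRCm38.p6, are written 5′ to 3′ on the strand of the gene, and have any match to the motif in capitals.
Igfbp2, chr1:72824230-72824479, plus strand: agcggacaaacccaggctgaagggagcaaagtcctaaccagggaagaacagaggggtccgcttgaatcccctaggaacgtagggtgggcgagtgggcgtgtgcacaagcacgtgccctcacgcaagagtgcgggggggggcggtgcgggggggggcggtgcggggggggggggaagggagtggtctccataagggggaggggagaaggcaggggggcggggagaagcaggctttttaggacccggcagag
Igfbp3, chr11:7213924-7214173, minus strand: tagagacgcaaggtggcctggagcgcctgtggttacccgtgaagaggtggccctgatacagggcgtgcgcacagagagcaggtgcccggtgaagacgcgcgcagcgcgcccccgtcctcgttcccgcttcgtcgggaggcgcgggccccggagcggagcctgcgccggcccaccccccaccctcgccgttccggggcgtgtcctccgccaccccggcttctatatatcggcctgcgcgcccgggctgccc
Igfbp5, chr1:72874866-72875115, minus strand: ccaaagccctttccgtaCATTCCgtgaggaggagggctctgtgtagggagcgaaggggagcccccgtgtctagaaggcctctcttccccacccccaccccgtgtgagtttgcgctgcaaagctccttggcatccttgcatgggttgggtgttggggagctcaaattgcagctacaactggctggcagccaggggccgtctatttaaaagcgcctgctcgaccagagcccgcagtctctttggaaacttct
Igf2, chr7:142661272-142661521, minus strand: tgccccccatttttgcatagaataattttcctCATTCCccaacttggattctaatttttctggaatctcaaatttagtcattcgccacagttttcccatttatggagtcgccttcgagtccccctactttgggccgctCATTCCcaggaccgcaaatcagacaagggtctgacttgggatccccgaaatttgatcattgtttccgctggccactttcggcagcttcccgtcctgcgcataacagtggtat
The motif was absent from the Igfbp3 window, from this Igfbp2 window and from a second Igfbp2 window that is not printed. The Igfbp5 window held 1 match. The Igf2 window printed is the one of its 4 with the most matches, and held 2. All 10 members had at least 1 window, and 4 of their 14 windows held the motif, against 12.6% of 32851 windows over all genes. These 4 were the Igfbp5 window and 3 of the 4 Igf2 windows. A match is a description of these letters and not a site, and the lack of one says nothing about binding elsewhere.

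Each library held between 20871566 and 25524349 estimated counts, and levels are given as CPM, the count of a gene relative to its TMM-scaled library. Whether transgene reads count towards Yap1 is not given in the sources used here. Yap1 lay between 19.9 and 22.3 CPM in controls and between 22.6 and 26.6 CPM in nlsYAP5SA brains, a log2 fold change of 0.23 ± 0.06 (SE, adjusted p = 0.0361, edgeR quasi-likelihood). The excitatory neuron marker Neurod6, the locus of the Cre allele that only nlsYAP5SA mice carried, was lower by a log2 fold change of -0.98 ± 0.09 (adjusted p = 2.65e-05). Ttr, the defining transcript of the choroid plexus, ran from 0.82 to 217 CPM in controls, from 0.78 to 275 CPM in nlsYAP5SA brains and from 1.52 to 239 CPM in C57BL/6 brains, so its content differed between brains of every group. Folr1, another choroid plexus marker, read 0.17 to 2.41 CPM in controls and 2.87 to 5.37 CPM in nlsYAP5SA brains, without overlap. It was called higher (adjusted p = 0.0133, edgeR quasi-likelihood), but not in the fit adjusted for sex described below. Against C57BL/6 brains Folr1 was not called (adjusted p = 0.0775). A fit with Ttr as a covariate follows Ttr alone, and the part of other choroid plexus markers was not tested. The library of nlsYAP5SA replicate 4 had the lowest Ttr and stood apart from its group in several genes named below. The sum of 4 Y-linked transcripts (Ddx3y, Eif2s3y, Kdm5d and Uty) was between 90.9 and 129 CPM in all 5 controls, but above 1 CPM in only 2 of the 5 nlsYAP5SA brains (replicates 3 and 4) and 2 of the 3 C57BL/6 brains. Sex was therefore uneven between the groups, and the called members and the counts of the gene lists of the comparison with control are given with and without an adjustment for it, while ratios, shares and summed levels were not adjusted.

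Of the 10 genes, 4 were called higher in nlsYAP5SA than in control brains at an adjusted p of 0.05 or less, and none was called lower. They were Igfbp3, Igfbp2 and Igfbp6, with fold changes of 2.96, 2.02 and 1.56, and Igf1r, with a smaller change. Over all 16315 genes tested, 10.8% were called, 7.36% as higher and 3.44% as lower. The median log2 fold change was 0.26 over the 10 genes and -0.01 over all genes. Levels of Igfbp2, Igfbp3 and Igfbp6 did not overlap between the groups, and 6.49% of all genes were higher without overlap. A bulk hemisphere cannot tell fewer or more cells of a type from less or more RNA in each cell.

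**Figure D1:**
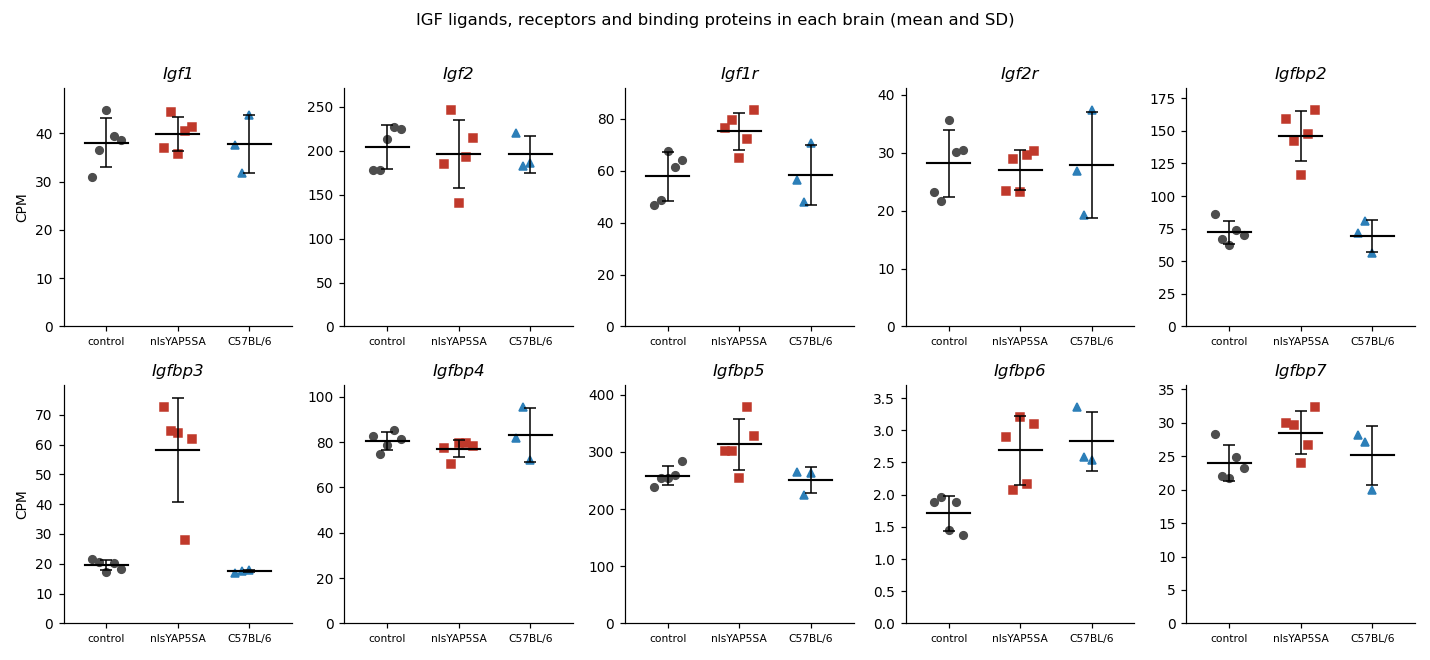
CPM of the 10 genes in each brain, with 1 point per brain, a bar at the group mean and error bars of 1 SD, for 5 control, 5 nlsYAP5SA and 3 C57BL/6 brains. The nlsYAP5SA points of Igfbp2 (116 to 166 CPM) lie above all others, those of Igfbp3 do so with 1 low brain at 27.9 CPM, and the points of Igf1, Igf2, Igf2r and Igfbp4 are interleaved.

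Of the ligands, Igf2 was the more abundant. Igf2 codes for the growth factor that acts mainly before birth and in the choroid plexus and meninges thereafter. Its level was 178, 178, 213, 227 and 225 CPM in control replicates 1 to 5. In nlsYAP5SA replicates 1 to 5 it was 185, 246, 141, 193 and 214 CPM, and in the C57BL/6 brains 220, 182 and 186 CPM. Both the highest and the lowest of the 13 values were nlsYAP5SA brains, and the groups overlapped throughout. The log2 fold change between nlsYAP5SA and control was -0.06 ± 0.13, with a 95% interval from -0.34 to 0.22 (adjusted p = 0.818, edgeR quasi-likelihood). With Ttr as a covariate the value was also -0.06, and in the brains with Y-linked transcripts alone it was -0.30 (adjusted p = 0.548). Igf2 shares exon sequence with the antisense gene Igf2os, which had a mean of only 14.7 counts per library.

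Igf1, the growth factor that neurons and microglia supply locally in the postnatal brain, ranged from 30.9 to 44.8 CPM in controls, from 35.8 to 44.5 CPM in nlsYAP5SA and from 31.8 to 43.8 CPM in C57BL/6 brains. The ranges were nearly the same in all 3 groups. Its log2 fold change between nlsYAP5SA and control was 0.06 ± 0.09, with a 95% interval from -0.13 to 0.26. The log2 ratio of Igf2 to Igf1 within a brain averaged 2.43 ± 0.15 (SD, n = 5) in controls and 2.28 ± 0.19 in nlsYAP5SA brains, a difference of -0.15 (p = 0.222, two-sided exact permutation test over 252 divisions, adjusted over 3 ratios to 0.222).

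The receptors differed from each other. Igf1r, the signalling receptor, read 46.9, 48.9, 67.8, 61.6 and 64.1 CPM in control replicates 1 to 5. In nlsYAP5SA replicates 1 to 5 it read 76.5, 79.5, 64.8, 72.1 and 83.5 CPM. As many as 4 of the 5 nlsYAP5SA brains were above every control, and replicate 3 fell within the control range. The log2 fold change was 0.38 ± 0.10 (95% interval 0.16 to 0.60, adjusted p = 0.0327). The call was lost on leaving out control replicate 1, 2 or 4 or nlsYAP5SA replicate 1, 2 or 5, with adjusted p from 0.0177 to 0.0915 over the 10 fits that left out 1 brain. With the Y-linked sum as a covariate the log2 fold change was 0.26 (adjusted p = 0.428) and in the brains with Y-linked transcripts alone 0.24 (adjusted p = 0.669). The call was also lost with Ttr as a covariate (0.39, adjusted p = 0.0590) and in 1 fit of all 13 samples (0.38, adjusted p = 0.0653). The 2 nlsYAP5SA brains with the lowest Igf1r were the 2 with Y-linked transcripts. The part of sex in the difference was not tested beyond these values.

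Igf2r, the clearing receptor for IGF2, ranged from 21.6 to 35.7 CPM in controls and from 23.2 to 30.3 CPM in nlsYAP5SA brains. The nlsYAP5SA values thus lay wholly inside the control range. Its log2 fold change was -0.06 ± 0.13, with a 95% interval from -0.35 to 0.23. The log2 ratio of Igf1r to Igf2r, which does not depend on library scaling, was 0.93 to 1.18 in controls and 1.29 to 1.71 in nlsYAP5SA brains without overlap, a difference of 0.43 (p = 0.00794, exact permutation, the smallest that 5 against 5 allows, adjusted p = 0.0238). The ratio of Igf1r to the insulin receptor gene Insr differed by only 0.17 on the log2 scale (exact permutation p = 0.0397, adjusted p = 0.0595), and in 7 of the 10 fits that left out 1 brain the unadjusted p was above 0.05 (at most 0.0714).

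Among the binding proteins 3 of 6 were called. Igfbp2, which carries IGF2 in the cerebrospinal fluid and is made by astrocytes, choroid plexus and meninges, read 86.5, 67.2, 62.2, 74.2 and 70.5 CPM in control replicates 1 to 5. In nlsYAP5SA replicates 1 to 5 it read 159, 142, 116, 148 and 166 CPM, and in C57BL/6 brains 71.4, 80.7 and 56.4 CPM. Every nlsYAP5SA brain was above all 8 others. The group means were 146 ± 19.2 CPM and 72.1 ± 9.15 CPM (SD) over 5 nlsYAP5SA and 5 control brains, and the log2 fold change was 1.02 ± 0.11 (95% interval 0.79 to 1.24, adjusted p = 5.79e-05). It ranged from 0.87 to 1.09 over 20 alternative fits, each of which called it. The lowest values were those with the Y-linked sum as a covariate (0.87, adjusted p = 0.00171) and in the brains with Y-linked transcripts alone (0.87, adjusted p = 0.00967). With Ttr as a covariate the value was 0.98.

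Igfbp3, the main carrier of IGFs in serum, held the largest difference of the 10 genes. It read 21.7, 20.5, 17.3, 20.3 and 18.3 CPM in control replicates 1 to 5, and 17.1, 17.5 and 17.8 CPM in the C57BL/6 brains. In nlsYAP5SA replicates 1 to 5 it read 72.6, 64.6, 63.8, 27.9 and 62.0 CPM. All 5 were above every other brain, but replicate 4 was below the next nlsYAP5SA brain by more than it was above the highest control. The log2 fold change was 1.56 ± 0.20 (95% interval 1.13 to 2.0, adjusted p = 0.000298). Without replicate 4 it was 1.74 (adjusted p = 6.7e-07), and over 20 alternative fits it ranged from 1.22 to 1.74 and was called in each. In the brains with Y-linked transcripts alone, of which replicate 4 is 1 of 2 nlsYAP5SA brains, it was 1.22 (adjusted p = 0.0381).

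Igfbp6, which prefers IGF2, was the scarcest of the 10 genes, with 29 to 75 counts per library. It read 1.37 to 1.96 CPM in controls, 2.07 to 3.20 CPM in nlsYAP5SA brains and 2.54 to 3.36 CPM in C57BL/6 brains. Controls were therefore lowest and both other groups were above them. The log2 fold change between nlsYAP5SA and control was 0.64 ± 0.17 (95% interval 0.27 to 1.02, adjusted p = 0.0325), and the call was lost on leaving out control replicate 3, 4 or 5 or nlsYAP5SA replicate 1, 3 or 5 (adjusted p at most 0.0893). It was also lost with the Y-linked sum as a covariate (0.64, adjusted p = 0.215), in the brains with Y-linked transcripts alone (0.64, adjusted p = 0.312) and with Ttr as a covariate (0.62, adjusted p = 0.0755). Against C57BL/6, the nlsYAP5SA difference was -0.09 ± 0.19, and it was not called (adjusted p = 0.838).

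Igfbp5, which binds matrix and bone mineral as well as IGFs, was not called. It read 239 to 285 CPM in controls and 302, 302, 254, 379 and 328 CPM in nlsYAP5SA replicates 1 to 5, with replicate 3 inside the control range and replicate 4 the highest of all brains. Its log2 fold change was 0.28 (95% interval 0.08 to 0.47, adjusted p = 0.0744), and it was called by DESeq2 at 0.27 (adjusted p = 0.0398) and without nlsYAP5SA replicate 3 at 0.34 (adjusted p = 0.0155). Igfbp7, a low-affinity binding protein of vessels, gave 0.25 (95% interval 0.04 to 0.45, adjusted p = 0.131) and 0.07 in the brains with Y-linked transcripts alone. It was called at 0.31 without control replicate 1 (adjusted p = 0.0394). Its exons overlap those of Polr2b on the other strand, and the strand setting of the counting is not given in the sources used here. Igfbp4, an inhibitor of IGF action, read 74.9 to 85.2 CPM in controls and 70.4 to 79.8 CPM in nlsYAP5SA brains, with a log2 fold change of -0.07 (95% interval -0.18 to 0.05).

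Igfbp2 (chr1:72824503-72852474, plus strand, GRCm38) and Igfbp5 (chr1:72857932-72874884, minus strand) are neighbours with 5457 bases between their ends. The log2 ratio of Igfbp2 to Igfbp5 in a brain was -2.03 to -1.46 in controls and -1.36 to -0.93 in nlsYAP5SA brains, a difference of 0.75. This ratio was chosen after the values had been seen and is given as a description with no test. Igfbp3 likewise lies 3539 bases from Igfbp1, which was at most 0.13 CPM in any brain and too scarce to test.

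**Figure D2:**
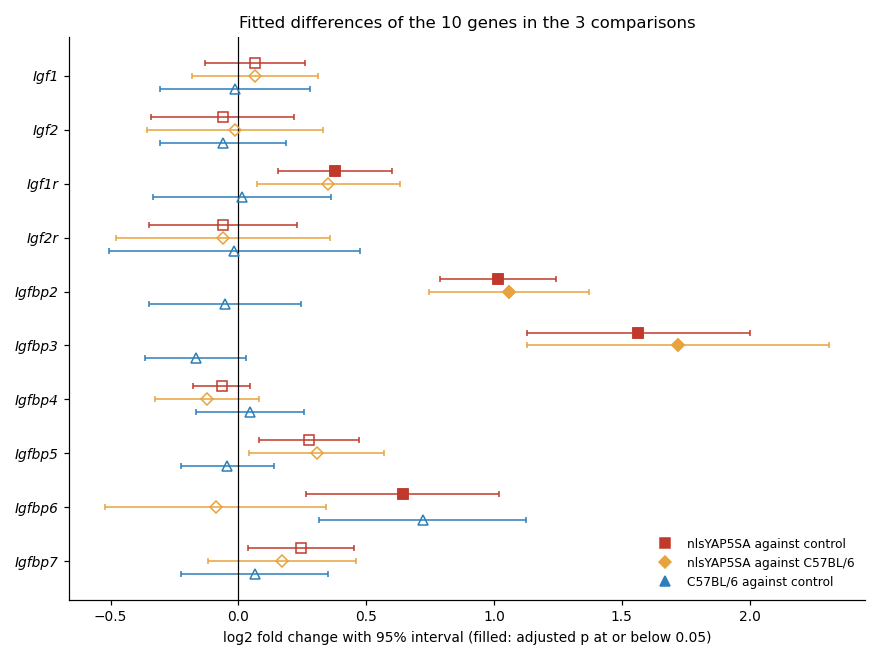
Log2 fold changes of the 10 genes in each of 3 comparisons, with 95% intervals from the edgeR quasi-likelihood fit; filled markers have an adjusted p of 0.05 or less. Igfbp2 and Igfbp3 are far to the right of 0 against both reference groups, whereas Igfbp6 is to the right only against control, and C57BL/6 against control stays near 0 for the others.

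Levels between genes were compared per kilobase of exon. In controls the order of mean level was Igfbp5 with 43.0 ± 2.79 CPM per kilobase, Igfbp2 with 39.0 ± 4.95 and Igf2 with 35.7 ± 4.29 (SD, n = 5). Igfbp5 overlapped Igfbp2, and Igfbp2 overlapped Igf2, but the range of Igf2 lay apart from that of Igfbp7. Igfbp7 and Igfbp4 followed with overlapping ranges at 19.9 and 18.2, then Igfbp3 at 6.27, which overlapped no neighbour. Igf1, Igf1r and Igf2r overlapped at 3.84, 3.45 and 3.03, and Igfbp6 was last at 1.54. The C57BL/6 brains gave the same order. In nlsYAP5SA brains Igfbp2 came first with 79.2 ± 10.4 CPM per kilobase, ahead of Igfbp5 with 52.1 ± 7.56, although their ranges overlapped. Igfbp3 was the fifth, with 18.6 ± 5.56, between Igfbp7 and Igfbp4, and its range overlapped both.

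The 6 binding proteins together summed to 128 ± 7.49 CPM per kilobase in control, 127 ± 10.4 in C57BL/6 (n = 3) and 193 ± 17.3 in nlsYAP5SA brains. Igfbp2 held 30.4% ± 2.2 of that sum in control and 40.8% ± 1.84 in nlsYAP5SA brains, with ranges of 28.4 to 34.1% and 37.8 to 42.5%. Igfbp3 held 4.90% ± 0.34 and 9.68% ± 3.03, and nlsYAP5SA replicate 4 was at 4.59%, inside the control range. The share of the others was smaller or level in nlsYAP5SA brains. It was 33.7% and 27.0% for Igfbp5, 14.3% and 9.09% for Igfbp4, 15.5% and 12.2% for Igfbp7, and 1.20% and 1.26% for Igfbp6. A smaller share here does not mean a lower level, since the sum was larger. These shares are a description with no test.

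**Figure D3:**
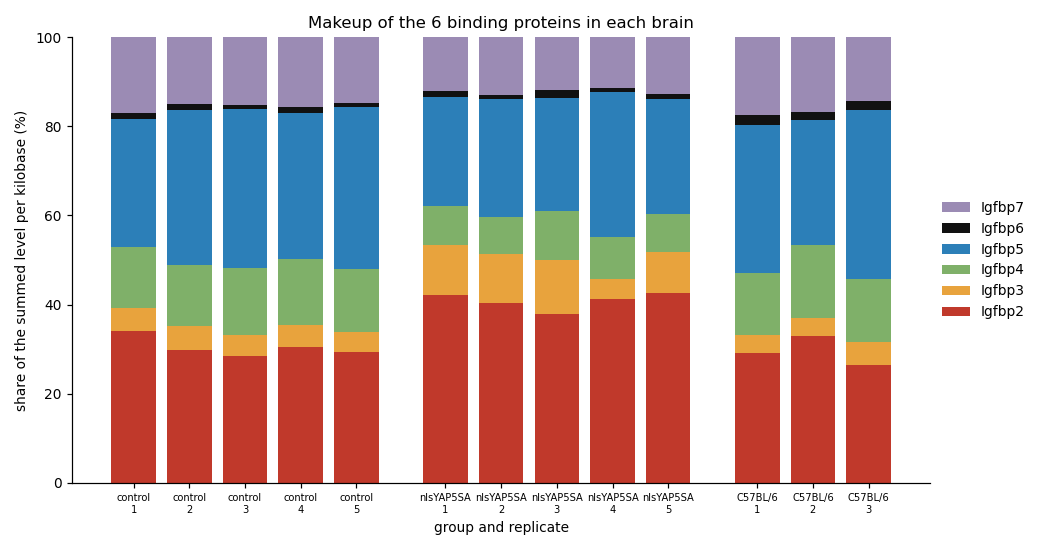
Share of each of 6 binding proteins in their summed level per kilobase, with 1 bar per brain ordered by group and replicate. The Igfbp2 part is 28.4 to 34.1% in controls and 37.8 to 42.5% in nlsYAP5SA brains, and the Igfbp3 part of nlsYAP5SA replicate 4 is 4.59%.

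Against the C57BL/6 brains, which share the nlsYAP5SA samples with the comparison above, 2 of the 10 genes were called and both were higher. Over all 16641 genes tested 6.38% were called, 4.16% as higher. Igfbp2 had a log2 fold change of 1.06 ± 0.14 (adjusted p = 0.00232) and Igfbp3 of 1.72 ± 0.27 (adjusted p = 0.00515), each without overlap. With the Y-linked sum as a covariate both were also called, at 0.99 (adjusted p = 0.00220) and 1.60 (adjusted p = 0.0109). Higher levels without overlap were seen in 8.71% of all genes. Igf1r gave 0.35 ± 0.13 (95% interval 0.07 to 0.63, adjusted p = 0.143), and was called at 0.52 when C57BL/6 replicate 3 was left out (adjusted p = 0.0194).

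Between C57BL/6 and control brains none of the 10 genes was called by edgeR or by DESeq2, and 1 had an unadjusted p under 0.05. This was Igfbp6, with a log2 fold change of 0.72 ± 0.18 (adjusted p = 0.48) and no overlap between the groups. Of all 16546 genes 0.169% were called, and 1.95% were higher without overlap. The widest 95% interval of the other members was that of Igf2r, from -0.51 to 0.47 on the log2 scale, so a difference of that size was not detectable with 3 C57BL/6 brains.

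The 6 lists of other IGF pathway genes held 90 genes, of which 79 were tested between nlsYAP5SA and control. Of these 21 were called, all higher, beside 10.8% of all genes called and 7.36% called higher. Without nlsYAP5SA replicate 4 the count was 22, with the Y-linked sum as a covariate 13, and in the brains with Y-linked transcripts alone 12, where the calls over all genes were 1891 of 16432, 550 of 16315 and 334 of 16918. Between C57BL/6 and control none of the listed genes was called.

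Proteases that cut binding proteins and their inhibitors held 7 calls among 14 tested genes of 16. Pappa and Pappa2 code for pappalysins, metalloproteases that release IGFs by cutting binding proteins. Pappa read 2.66 to 4.62 CPM in controls and 6.68 to 11.1 CPM in nlsYAP5SA brains, and rose by a log2 fold change of 1.25 ± 0.18 (adjusted p = 0.000558). Pappa2 read 4.70 to 7.08 CPM and 11.2 to 21.9 CPM, and rose by 1.46 ± 0.18 (adjusted p = 0.000216). Stc2, a stanniocalcin that blocks pappalysins, rose as well, from 2.06 to 3.17 CPM to 4.95 to 8.57 CPM, by 1.51 ± 0.16 (adjusted p = 6.39e-05). These 3 genes did not overlap between the groups. Stc1, the other stanniocalcin, is named after its values were seen and was not called, at 8.76 to 9.75 CPM in control and 7.34 to 8.89 CPM in nlsYAP5SA brains (log2 fold change -0.17, 95% interval -0.34 to -0.00020, adjusted p = 0.204).

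Timp3, an inhibitor of metalloproteases, read 111 to 128 CPM in controls and 189 to 253 CPM in nlsYAP5SA brains, with a log2 fold change of 0.92 ± 0.08 (adjusted p = 1.66e-05). Timp1, another such inhibitor, rose by 1.71 ± 0.33 (adjusted p = 0.00494) on 6 to 35 counts per library, with overlap. Plat, the tissue plasminogen activator, and Mmp2, a gelatinase, rose by 0.49 ± 0.10 (adjusted p = 0.00591) and 0.39 ± 0.11 (adjusted p = 0.0319), and both overlapped. Htra1, another protease, is named after its values were seen and was not called (log2 fold change 0.40, adjusted p = 0.148), but it was called without nlsYAP5SA replicate 4, where it read 79.3 CPM against 147 to 162 CPM in the other nlsYAP5SA brains. Plat was at 36.6 CPM in nlsYAP5SA replicate 4 and at 52.0 to 56.1 CPM in the other nlsYAP5SA brains, the same brain that was low in Igfbp3. Mmp2 lost its call on leaving out control replicate 1, 2 or 3 or nlsYAP5SA replicate 1, 2, 4 or 5 (adjusted p at most 0.0883). Pappa, Pappa2, Stc2 and Timp3 were also called with the Y-linked sum as a covariate, whereas Plat, Mmp2 and Timp1 were not.

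The list of genes at the Igf2 locus and of proteins that bind its RNA held 3 calls among 8 tested genes of 10. H19, an imprinted noncoding RNA, lies 72622 bases from Igf2. In most tissues, but not in all, H19 is expressed from the maternal chromosome and Igf2 from the paternal one. The counts do not tell the chromosomes apart. It read 6.70, 8.76, 6.21, 7.13 and 7.36 CPM in control replicates 1 to 5 and 35.0, 52.6, 28.5, 72.9 and 72.6 CPM in nlsYAP5SA replicates 1 to 5. Every nlsYAP5SA brain was thus far above the controls, and the 2 lowest were replicates 1 and 3. The log2 fold change of H19 was 2.85 ± 0.26 (adjusted p = 1.81e-05), beside -0.06 for Igf2. The log2 ratio of H19 to Igf2 differed by 2.84 between the groups, a description with no test, since it was chosen after the values had been seen.

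Igf2bp1, a fetal protein that binds IGF2 messenger RNA, read 0.12 to 0.38 CPM in controls (3 to 8 counts) and 1.69 to 2.86 CPM in nlsYAP5SA brains (39 to 61 counts), a log2 fold change of 3.26 ± 0.28 (adjusted p = 1.37e-05). Plagl1, an imprinted zinc-finger regulator, read 21.7 to 28.8 CPM and 38.8 to 44.6 CPM, a log2 fold change of 0.66 ± 0.08 (adjusted p = 0.000122). All 3 calls of this list were also made with the Y-linked sum as a covariate.

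**Figure D4:**
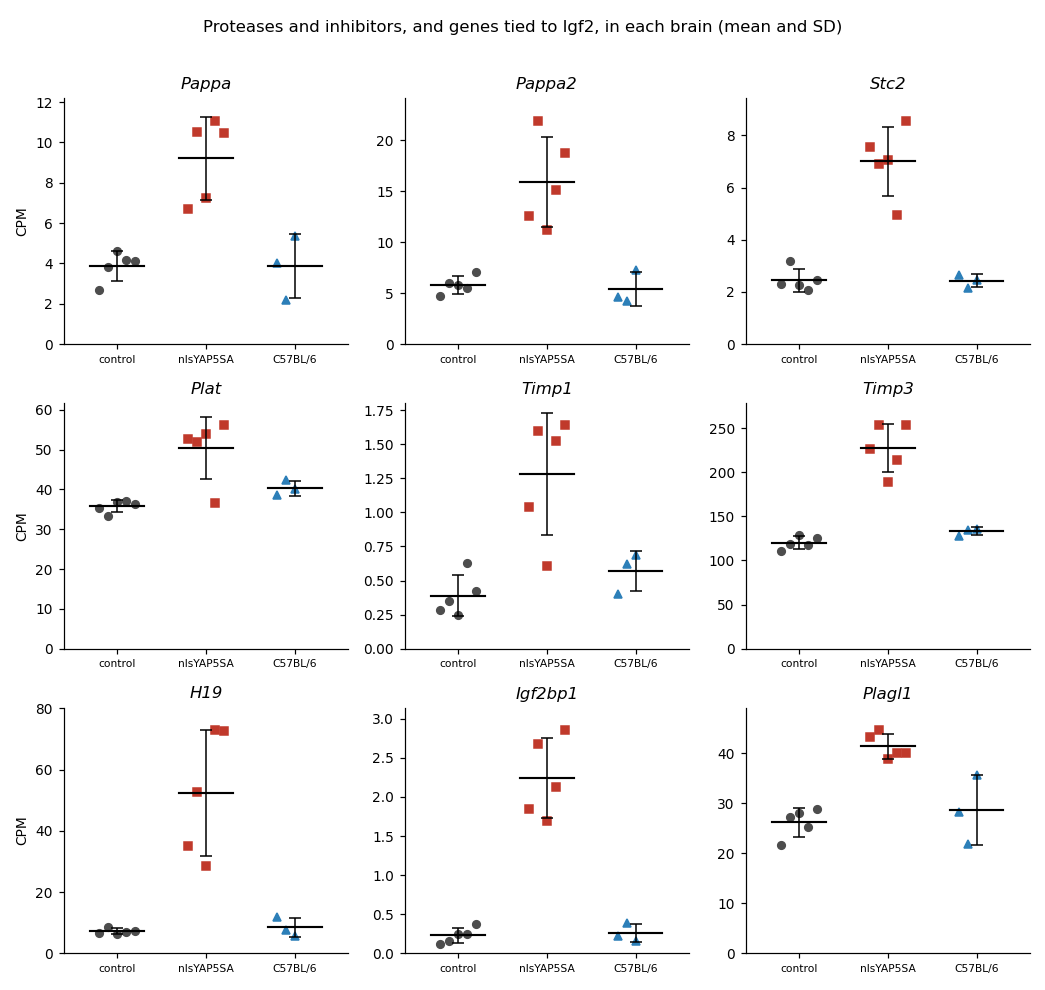
CPM of 9 genes of the protease and Igf2 lists in each brain, with the group mean and SD, for 5 control, 5 nlsYAP5SA and 3 C57BL/6 brains. The nlsYAP5SA points lie above all controls for Pappa, Pappa2, Stc2, Timp3, H19, Igf2bp1 and Plagl1, and Plat shows 1 nlsYAP5SA brain at 36.6 CPM among the controls.

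Relatives and partners of the binding proteins held 5 calls among 7 tested genes of 10, all in the CCN family, whose secreted matrix proteins carry an IGF-binding-protein-like domain. Wisp2 read at most 0.42 CPM in controls (0 to 10 counts) and 12.8 to 15.5 CPM in nlsYAP5SA brains, a log2 fold change of 6.09 ± 0.27 (adjusted p = 1.14e-07). Cyr61 rose by 2.48 ± 0.18 (adjusted p = 4.18e-06), Wisp1 by 1.98 ± 0.15 (adjusted p = 4.42e-06) and Ctgf by 1.43 ± 0.09 (adjusted p = 1.82e-06). Cyr61 and Ctgf are textbook targets of YAP1. Nov, the most abundant of the family at 189 to 218 CPM in controls, rose least, by 0.28 ± 0.05 (adjusted p = 0.00394). None of these genes overlapped between the groups, and Nov alone was not called with the Y-linked sum as a covariate.

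**Figure D5:**
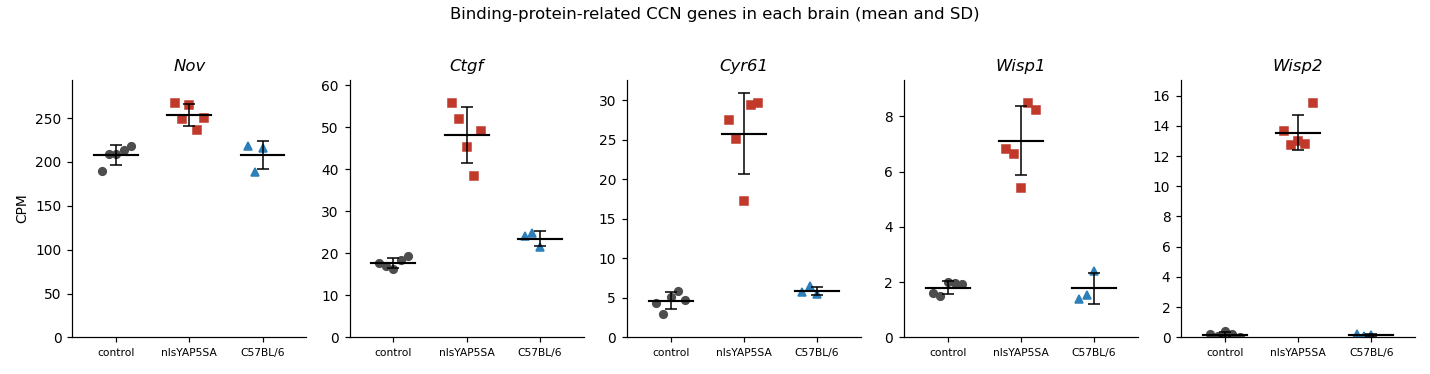
CPM of 5 CCN genes in each brain, with the group mean and SD, for 5 control, 5 nlsYAP5SA and 3 C57BL/6 brains. Wisp2 is at most 0.42 CPM in controls and 12.8 to 15.5 CPM in nlsYAP5SA brains, while the relative difference of Nov is the smallest of the 5.

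Among the insulin receptor and its adaptors 2 of 16 tested genes of 18 were called, Irs2 and Gab1, adaptors that pass the signal to PI3K, with log2 fold changes of 0.30 ± 0.07 (adjusted p = 0.0104) and 0.35 ± 0.08 (adjusted p = 0.00885). Of 26 genes of the PI3K-AKT-mTOR branch, all tested, 2 were called. Both counts are near the 10.8% called over all genes, so neither is a result about its list. Foxo1, a transcription factor that AKT holds out of the nucleus, rose by 0.32 ± 0.08 (adjusted p = 0.0199), a call that was lost without control replicate 2 or nlsYAP5SA replicate 1 or 5 (adjusted p at most 0.0611). Eif4ebp1, a repressor of translation that mTOR switches off, rose by 0.98 ± 0.15 (adjusted p = 0.0012) on 25 to 74 counts per library. The median log2 fold change of the branch was 0.01, and no kinase of it was called. Messenger levels say nothing about the phosphorylation by which this branch signals.

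Among growth hormone axis genes 2 of 8 tested of 10 were called, beside 10.8% of all genes. So few calls are not a result about the list. Socs3, an inhibitor of cytokine signalling, read 1.56 to 1.88 CPM in controls and 4.20 to 6.91 CPM in nlsYAP5SA brains, a log2 fold change of 1.52 ± 0.16 (adjusted p = 5.48e-05). Its highest value was that of nlsYAP5SA replicate 4. Jak2, the kinase of the growth hormone receptor, gave 0.24 ± 0.06 (adjusted p = 0.0327), and its call was lost on leaving out any brain other than control replicate 3 and nlsYAP5SA replicates 3 and 5 (adjusted p at most 0.0867). Irs2, Gab1, Foxo1 and Jak2 were not called with the Y-linked sum as a covariate.

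Against the C57BL/6 brains the calls were 4 of 14 tested genes in the protease list, 4 of 7 among binding protein relatives, 3 of 9 in the Igf2 list, 1 of 26 in the PI3K-AKT-mTOR branch, 1 of 8 in the growth hormone list and 0 of 16 adaptors, all higher. Over all genes 6.38% were called in this comparison and 4.16% were called higher. Pappa gave a log2 fold change of 1.23, Pappa2 of 1.54, Stc2 of 1.52 and Timp3 of 0.76 there. H19 gave 2.61, on 5.85 to 11.9 CPM in the C57BL/6 brains, and Igf2bp1 gave 3.11. These values share the nlsYAP5SA brains with those against control.

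Markers of cell types also differed between the groups. In tumours of mice lacking LATS1 and LATS2, the paper reports staining for GFAP, vimentin and AXL, which are on the lists below. The astrocyte and microglia lists therefore cannot tell those cells from tumour cells. All 8 reactive astrocyte markers were called higher, and their summed level was 247 to 295 CPM in control and 878 to 1148 CPM in nlsYAP5SA brains. Gfap, the astrocyte filament, read 170 to 189 CPM and 648 to 830 CPM. Of homeostatic microglia markers 5 of 8 were higher (summed level 341 to 425 CPM and 456 to 596 CPM), and of activated microglia markers 5 were higher and 1 lower among 6 tested of 8 (134 to 157 CPM and 161 to 224 CPM). Astrocyte markers were called higher in 3 of 8, with summed levels of 3169 to 5643 CPM and 4396 to 6566 CPM. All these calls but 1 were thus higher, beside 7.36% called higher and 3.44% called lower over all genes.

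Vessel and meningeal lists were mixed. Fibroblast markers had 3 higher and 1 lower of 10 (186 to 276 CPM and 212 to 330 CPM), mural markers 2 higher and 3 lower of 8 (327 to 398 CPM and 238 to 346 CPM), and endothelial markers 3 lower of 10 (243 to 286 CPM and 212 to 272 CPM). Choroid plexus markers had 2 higher of 10 (Folr1 and F5), on summed levels of 18.2 to 244 CPM and 22.6 to 325 CPM. Ciliated ependymal markers had 2 higher of 8 (22.0 to 36.2 CPM and 36.5 to 42.1 CPM). Excitatory neuron, interneuron and oligodendrocyte markers had 1 lower of 8 each. Their summed levels were 2592 to 3287, 707 to 762 and 2111 to 3360 CPM in control brains. In nlsYAP5SA brains they were 2277 to 2886, 696 to 792 and 1406 to 2799 CPM. The excitatory neuron call, here and in the adjusted fit below, was Neurod6. Only nlsYAP5SA mice carried the Cre allele at that locus, and its part in the Neurod6 level was not tested. Slc17a7 (log2 fold change -0.16) and Neurod2 (-0.04) were not called. No marker in these lists was at 0 in every brain of a group. With the Y-linked sum as a covariate, 550 of all 16315 genes were called, 484 as higher and 66 as lower. The marker calls were 8 of 8 reactive astrocyte, 3 of 8 homeostatic microglia and 4 of 6 activated microglia markers, all higher, and 0 of 8 astrocyte markers. In that fit fibroblast markers had 2 higher, mural markers 2 higher and 1 lower, endothelial and excitatory neuron markers 1 lower each, and the choroid plexus, ependymal, interneuron and oligodendrocyte lists had 0 calls. The part of any of these cell types in the levels of the 10 genes was not tested.

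The genes whose pattern over the 13 brains was closest to a called member were found by the root mean square difference of centred log2 CPM. For Igfbp2 these were C1qc (0.11), C1qa (0.11), both complement genes of microglia, and Ggta1 (0.14). For Igfbp3 they were Hif3a (0.18), Galnt15 (0.19) and Tent5b (0.20), for Igf1r Trim56, Foxo3 and Lamp2 (0.09 each), and for Igfbp6 Hlx, Sh3bgr (0.17 each) and Dnaaf1 (0.18). With group means removed, the closest were Igfbp7, Cnn2 and C1qb for Igfbp2 (0.07 to 0.08), and Fkbp5, Tcim and Vegfd for Igfbp3 (0.11 each). They were Plcb4, Sh3pxd2a and Shank1 for Igf1r (0.06 each), and Pmm2, Klhl36 and Kctd13 for Igfbp6 (0.09 to 0.11). The other binding protein Igfbp7 was thus the gene that varied most like Igfbp2 from brain to brain within groups.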

How the data were processed

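The authors deposited estimated counts per gene for the 13 hemispheres. Per the paper's methods and the submitters' processing notes, libraries were made with an mRNA kit, adapters were cut with cutadapt 1.5, mapping with STAR used the GRCm38 genome, release 86, and counting used RSEM 1.3.0, which shares multi-mapping reads by estimate. The strand setting is not given in the sources used here.

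Estimated counts were rounded and compared between each pair of groups with edgeR 4.0.16 in R 4.3.3 (quasi-likelihood F-test, TMM scaling, filterByExpr with a minimum count of 10, Benjamini-Hochberg adjustment over all genes tested, called at 0.05). CPM used TMM over all 13 libraries. DESeq2 1.42.0 was an alternative, as were other scalings and filters, 1 fit of all 13 samples, a Ttr or Y-linked covariate (log2 CPM with a pseudocount of 0.5), and leaving out each brain. Ratios of genes were compared by exact permutation of samples. Each group held 5, 5 and 3 brains, and the samples within a group differed by more than counting noise. P-values weigh a difference against the spread between these animals, which the tests treated as independent. Mating was not modelled, since it is not named per mouse. Gene names and positions came from GENCODE M21 (GRCm38), a later release than the one counted, with 48349 of 48795 identifiers matched, and exon lengths from the same file. Promoters came from RefSeq. Models were tested on simulated data first.

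The 10 genes, the pathway and marker lists and the tests were chosen with earlier results of these data known. Named genes were all members, each pathway gene called between nlsYAP5SA and control, up to 3 markers of a list, and the 3 genes nearest each called member. The comparisons share samples and are not independent.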

Additional observations from a re-analysis of the deposited data

Results flagged for a closer look

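Samples far from the rest of their group were looked for in groups of 5, where the gap to the nearest brain exceeded 0.71 of the range. The search covered the members, the 21 called pathway genes, the ratios and the shares, and left out list genes that were not called. Of 84 groups of values 6 did so, and chance flags about 1 in 20. The level of Igfbp3 in nlsYAP5SA replicate 4 was 27.9 CPM, against 62.0 to 72.6 CPM in the other nlsYAP5SA brains. The same brain was the lowest in Plat, with 36.6 CPM against 52.0 to 56.1 CPM, and the highest in Socs3, with 6.91 CPM against 4.20 to 4.94 CPM. Its share of Igfbp5 in the summed binding proteins was 32.5%, against 24.6 to 26.5% in the others. The level of Igfbp4 in nlsYAP5SA replicate 2 was 70.4 CPM, against 77.4 to 79.8 CPM. In controls, Jak2 in replicate 1 was at 33.3 CPM, against 38.3 to 39.2 CPM. Thus 4 of the 6 values came from nlsYAP5SA replicate 4, the brain with the lowest Ttr, and a cause was not tested.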

How the results depend on the processing

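Igfbp2 and Igfbp3 were called between nlsYAP5SA and control in all 20 alternative fits, whereas Igf1r lost its call in 11 and Igfbp6 in 10. The count of members called was 2 with the replicate block, with the Ttr covariate, with the Y-linked covariate and in the brains with Y-linked transcripts alone (an alternative added after seeing the data), and 2 to 4 on leaving out 1 brain. The cause was not tested. Genes called in this comparison numbered 550 with the Y-linked covariate and 334 in the brains with Y-linked transcripts alone, and 1210 to 1891 on leaving out 1 brain. Of the calls, 68.1% were higher, and 88.0% and 92.2% in those 2 fits.

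Replicate numbers do not pair the samples: deviations of same-numbered nlsYAP5SA and control brains correlated from -0.315 to 0.312. With the replicate block, 1239 genes were called between nlsYAP5SA and control, 15 between C57BL/6 and control, and 47 between nlsYAP5SA and C57BL/6 with 1 member (Igfbp3; Igfbp2 had an adjusted p of 0.0595).

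Between C57BL/6 and control 28 genes were called, 16 with at least 10 counts in every sample, 59 by DESeq2 and 44 in 1 fit of all 13 samples. Between nlsYAP5SA and C57BL/6 1061 were called, 1596 by DESeq2 and 401 to 1757 on leaving out 1 brain, the ends being those without C57BL/6 replicates 1 and 3. It was 581 without C57BL/6 replicate 2, and 636, 645 and 509 without nlsYAP5SA replicates 1, 2 and 5. Without division by length the shares in control and nlsYAP5SA brains were 15.8% and 23.3% for Igfbp2, 4.30% and 9.42% for Igfbp3, 17.7% and 12.4% for Igfbp4, 56.6% and 49.9% for Igfbp5, 0.375% and 0.434% for Igfbp6, and 5.26% and 4.56% for Igfbp7. The difference between nlsYAP5SA and control in the log2 ratio of Igf1r to Insr was 0.14 to 0.21 on leaving out 1 brain.

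Uncalled log2 fold changes near 0 changed sign. Igf1 in nlsYAP5SA against control was -0.00038 in the brains with Y-linked transcripts alone. For C57BL/6 against control, Igf1r was -0.0051 with library size alone. With the replicate block there, Igf1 was 0.014, Igf2 0.047, Igf2r 0.041 and Igfbp5 0.0058. Igf1 was 0.031 with the Ttr covariate. With the Y-linked covariate, Igf1 was 0.10, Igf2r 0.19, Igfbp4 -0.061, Igfbp5 0.025 and Igfbp7 -0.0060. For nlsYAP5SA against C57BL/6, Igf2 was 0.021 with library size alone and 9.6e-05 in 1 fit of all samples, and Igf2r was 0.022 with the Y-linked covariate. On leaving out 1 brain, the ranges for nlsYAP5SA against control were -0.16 to 0.036 for Igf2 and -0.14 to 0.035 for Igf2r. For C57BL/6 against control they were -0.15 to 0.10 for Igf1, -0.17 to 0.14 for Igf1r, -0.30 to 0.19 for Igf2r, -0.17 to 0.060 for Igfbp2, -0.066 to 0.12 for Igfbp4, -0.096 to 0.029 for Igfbp5 and -0.031 to 0.19 for Igfbp7. For nlsYAP5SA against C57BL/6 they were -0.029 to 0.19 for Igf1, -0.11 to 0.092 for Igf2, -0.25 to 0.22 for Igf2r, -0.21 to 0.0052 for Igfbp4 and -0.16 to 0.056 for Igfbp6. Depth limited Igfbp6 most, at 29 to 75 counts per library, and the rest of the members had at least 366.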
